A study of Rattus norvegicus with 6 samples.

Results

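The genes described here are 41 genes that build or control the mitotic chromosome and spindle, out of 33565 rows in the gene table. They were taken by symbol from a list of kinetochore, spindle checkpoint, condensin and spindle assembly genes, and each of the 41 symbols matched a single row. The cells were cultured primary cardiomyocytes from the hearts of 7-day-old Sprague-Dawley rats. Control cells received vehicle, and treated cells received progesterone, a steroid hormone, at 100 nM. Both groups were exposed for 24 h, both were grown with 10% fetal bovine serum, and each has 3 libraries that the labels call biological replicates. The labels name no genetic change in either group and do not say whether replicates came from separate animals or cultures, so p-values measure the spread between these libraries, which may be technical. In its title the series names cardiomyocyte proliferation through YAP, a coactivator of the Hippo pathway.

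In mitosis the kinetochore, a protein assembly on the centromere, ties each chromosome to spindle microtubules. The spindle checkpoint holds the anaphase-promoting complex in check until every kinetochore is attached, after which securin is destroyed and separase cuts cohesin. Condensin compacts the chromosomes, and spindle assembly factors nucleate, bundle and focus the microtubules. Most of these genes are transcribed in G2 and mitosis of cycling cells, and rodent cardiomyocytes largely leave the cell cycle in the first postnatal weeks. In RNA from a whole culture, more cycling cells and more RNA per cycling cell cannot be told apart. Nor can the cell type that carried the RNA be told, and markers of other cell types were read too, as given below.

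The libraries held 21156793 to 25376220 counts. Of 15075 genes tested, 31.2% were higher and 31.8% lower with progesterone at an adjusted p under 0.05, so a call by itself separates a gene little from the rest. Higher genes made up 49.6% of the calls, or 60.1% with upper quartile scaling, which put the median change over all genes at 0.10 on the log2 scale. Cardiomyocyte markers were read in both groups, with a summed level of 10272 to 10907 CPM (counts scaled to library size with TMM factors) in the control libraries and 9112 to 10010 CPM in the progesterone libraries. Of 9 such markers tested, 4 rose and 3 fell. Smooth muscle and pericyte markers rose in 10 of 10, from 2408 to 2780 CPM summed over the list in the controls to 5765 to 6388 CPM. Fibroblast markers rose in 5 of 9 and fell in 3 (27513 to 28605 CPM against 36946 to 39905 CPM). Among those that rose, Col3a1 went from a mean of 6556 to 13735 CPM and Postn from 2906 to 5682 CPM. The 3 that fell were Dcn, from 2094 to 946 CPM, Pdgfra, from 804 to 370 CPM, and Ddr2, from 243 to 150 CPM. Leukocyte markers rose in 5 of 8 and fell in 2 (48.0 to 67.6 CPM against 165 to 186 CPM). Most of that summed gain was Lyz2, from a mean of 7.06 to 110 CPM. The 2 that fell were Cd74, from 12.6 to 1.63 CPM, and Fcgr3a, from 2.44 to 0.278 CPM. Endothelial markers rose in 2 of 9 and fell in 4 (653 to 742 CPM against 512 to 593 CPM). Interferon-stimulated genes fell in 10 of 10, from a summed 11057 to 11304 CPM to 29.2 to 32.7 CPM. Ttn, Col1a2, Pecam1 and Itgam of these lists were not analysed here. No other marker was at 0 in every library, and the part these shifts have in the results below was not tested.

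Promoters of these genes often share a pair of short elements, shown here because they are a common feature of the set that the choice by function did not use, and the values come after them. The CHR (cell cycle genes homology region), searched as TTTGAA or TTCGAA, is bound by the MuvB complexes that repress or activate late cell-cycle genes, and CCAAT is bound by the factor NF-Y. RefSeq promoter windows of the rat build GRCr8, from 250 bases before to 50 bases after the annotated start, were found for 37 of the 41 genes, without Foxm1, Sgo2, Tpx2 and Ube2c. Only the first listed window of each gene was searched for these 37 and for the tested genes. The share of all windows counts every window, so the share of tested genes is the like comparison. On either strand, 28 of the 37 windows (75.7%) held a CHR, against 19.7% of all 33469 windows (some genes have several) and 13.3% of the 10306 windows matched to tested genes. CCAAT was in 26 of 37 (70.3%), against 37.5% of all windows and 37.6% of those of tested genes, and both were in 22 of 37 (59.5%), against 7.95% of all windows and 5.45% of those of tested genes. An E2F element, searched as TTTCCCGC or TTTGGCGC, was in none of the 37, in 1.45% of all windows and in 2.93% of those of tested genes. At shares this low, none in 37 windows says little, and other forms of the element were not searched. GGAATG, the core bound by the TEAD partners of YAP, was in 6 of 37 (16.2%), against 14.2% of all windows and 11.1% of those of tested genes. Hits of each element were counted on both strands (TTCGAA is its own reverse complement). The elements are different letter strings, and each was counted on its own.

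The 200 bases before the start are printed for the gene with the largest change in each role group that has a window, and for the gene with the smallest change of all. Capitals mark CHR and CCAAT letters on either strand, 5′ to 3′ along the gene. Cenpi lies at chrX:101809459-101809658, plus strand, Sgo1 at chr9:6924416-6924615, minus strand, and Top2a at chr10:84473094-84473293, minus strand. Plk4 lies at chr2:125730280-125730479, plus strand, and Bub3 at chr1:195760332-195760531, plus strand, all in GRCr8.
Cenpi: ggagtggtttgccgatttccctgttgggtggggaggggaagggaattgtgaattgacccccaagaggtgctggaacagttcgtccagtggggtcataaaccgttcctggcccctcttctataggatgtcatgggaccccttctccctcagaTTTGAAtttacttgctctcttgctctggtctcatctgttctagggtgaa
Sgo1: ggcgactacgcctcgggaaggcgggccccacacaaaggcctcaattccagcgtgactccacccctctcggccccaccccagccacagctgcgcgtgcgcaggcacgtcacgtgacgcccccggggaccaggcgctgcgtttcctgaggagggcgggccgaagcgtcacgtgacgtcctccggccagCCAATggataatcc
Top2a: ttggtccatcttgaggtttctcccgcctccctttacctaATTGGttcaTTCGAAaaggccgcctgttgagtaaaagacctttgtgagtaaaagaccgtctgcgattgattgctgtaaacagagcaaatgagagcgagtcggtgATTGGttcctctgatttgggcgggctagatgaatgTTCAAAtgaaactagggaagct
Plk4: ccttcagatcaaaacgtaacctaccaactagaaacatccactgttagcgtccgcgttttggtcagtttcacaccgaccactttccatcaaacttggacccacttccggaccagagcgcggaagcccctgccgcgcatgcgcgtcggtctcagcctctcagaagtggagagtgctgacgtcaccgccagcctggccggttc
Bub3: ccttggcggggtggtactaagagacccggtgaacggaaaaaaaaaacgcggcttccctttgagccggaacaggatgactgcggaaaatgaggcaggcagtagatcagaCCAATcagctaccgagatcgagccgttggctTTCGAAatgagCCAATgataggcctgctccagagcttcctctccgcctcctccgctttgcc
Distances are to the leftmost base of an element. Top2a showed a CHR 22 bases before the start and a second at 152, with CCAAT on the opposite strand at 57 and 161. Cenpi held a CHR at 49 bases before the start and no CCAAT in the printed stretch. In Sgo1 and Plk4 the CHR letters lay after the start, 12 and 19 bases into the transcript, outside the printed stretch. Bub3, the gene that moved least, held a CHR at 61 and CCAAT at 50 and 92 bases before the start, so these letters were present at both ends of the range of changes. The median log2 fold change was 1.35 in genes with a CHR and 1.35 in those without, 1.28 with CCAAT and 1.50 without, and 1.28 with both and 1.41 in the rest. These differences were not tested. A match is a description of letters and not a binding site.

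All 41 genes were higher with progesterone, and in each of them the 3 progesterone libraries lay above the 3 control libraries. The background for the first count is the 31.2% of all tested genes called higher, and for the second the 33.8% whose groups did not overlap in that direction. In 34 of the 41 the rise was at least 2-fold, against 7.14% of all tested genes. The median log2 fold change of the 41 was 1.35, against 0.00 over all genes tested and 0.48 over all genes called higher, and 4.55% of tested genes had a log2 fold change at or above 1.35. Summed over the 41 genes, the level was 1282 ± 43.1 CPM in control and 2917 ± 69.2 CPM in progesterone libraries (SD, n = 3), or 0.124% to 0.132% and 0.285% to 0.293% of all counts. Fold changes of different genes are set side by side with their SEs below, and the differences between them were not tested. The changes ran from 1.23-fold for Bub3 to 3.43-fold for Top2a.

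**Figure D1:**
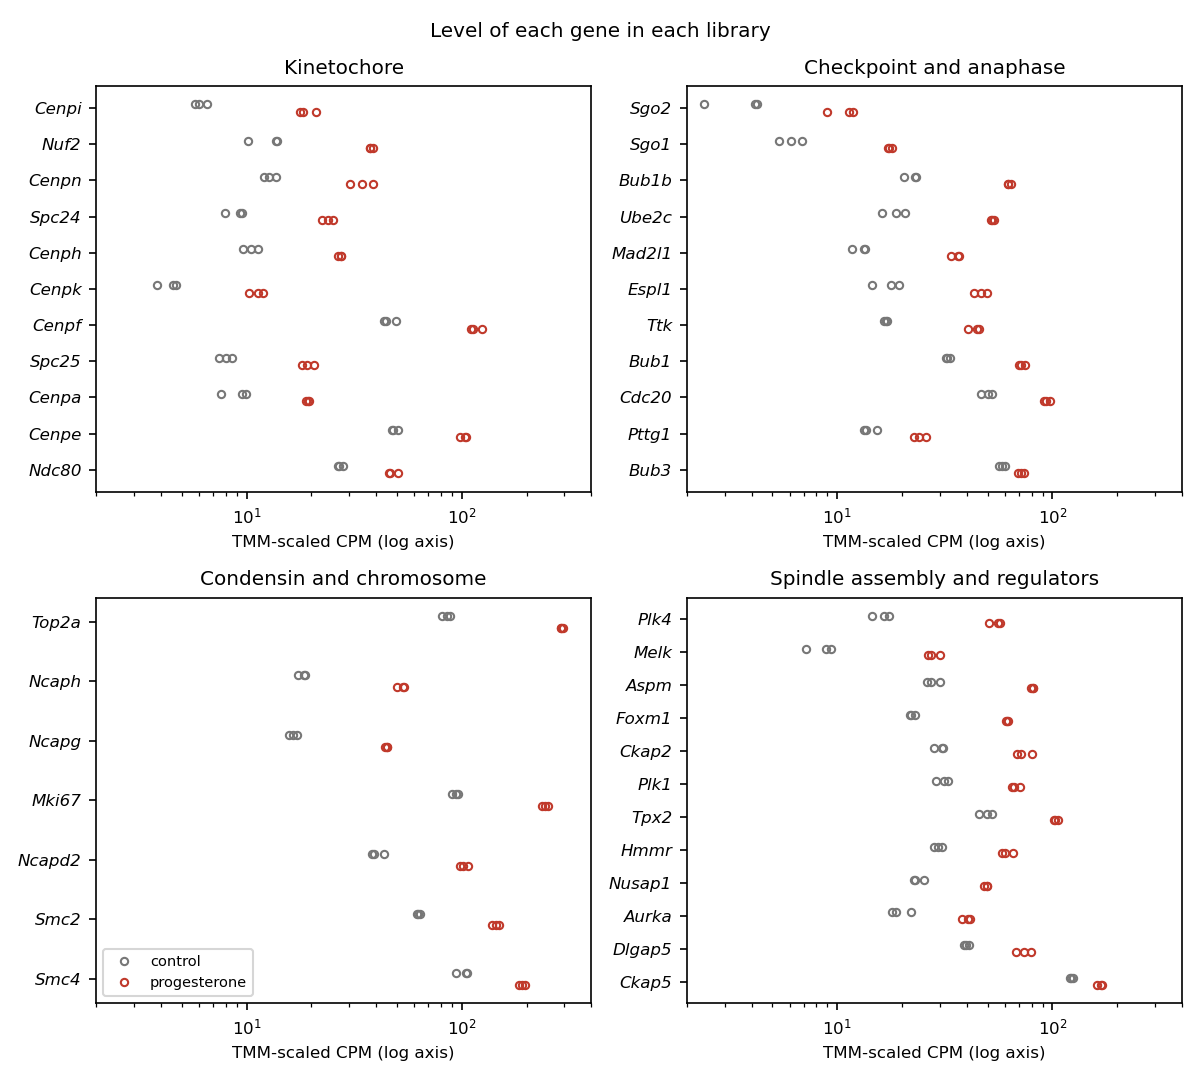
Level of each of the 41 genes in each library, as TMM-scaled CPM on a log axis, in 4 panels by role. Open circles are single libraries, grey for control and red for progesterone, and in every row the red circles lie to the right of the grey ones, closest together for Bub3.

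All 11 kinetochore genes rose, with a median log2 fold change of 1.35. The group runs from CENP-A, the histone variant that marks the centromere, through the constitutive centromere proteins to the NDC80 complex, which grips the microtubule. Cenpi (chromosome X, 105147153 to 105198797, plus strand, in the table's rat build, which is not named), a subunit of the inner kinetochore, was read at 6.54, 6.01 and 5.78 CPM in control libraries 1 to 3. In progesterone libraries 1 to 3 it was read at 18.2, 17.7 and 21.1 CPM. The highest control lay far below the lowest progesterone library, a log2 fold change of 1.64 ± 0.10 (SE; edgeR quasi-likelihood test, adjusted p = 1.8e-09).

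Nuf2, which pairs with NDC80 at the microtubule-binding end, had 13.9, 13.7 and 10.2 CPM in the control libraries and 37.5, 38.7 and 37.7 CPM in the progesterone libraries. Control library 3 was the low one, and the progesterone libraries were close together, with a log2 fold change of 1.59 ± 0.10 (adjusted p = 1.3e-08). Cenpn, which reads the CENP-A nucleosome, had 13.7, 12.1 and 12.7 CPM in control and 38.7, 34.4 and 30.4 CPM in progesterone libraries, a log2 fold change of 1.43 ± 0.09 (adjusted p = 2.6e-09). Its progesterone library 3 was the lowest of that group and still above every control. The Cenpn row overlaps Cmc2 on the opposite strand, which rose too (log2 fold change 1.04), and since no label states whether reads were counted by strand, reads of the pair may be mixed.

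The smallest change of the group was in Ndc80 itself, with 26.7, 26.9 and 28.2 CPM in the controls and 45.9, 50.7 and 46.6 CPM with progesterone. The groups did not overlap, at a log2 fold change of 0.81 ± 0.06 (adjusted p = 1.2e-08). Cenpe, a kinesin motor that carries chromosomes to the spindle equator, had 50.4, 48.1 and 47.5 CPM in control and 103, 104 and 97.9 CPM in progesterone libraries, a log2 fold change of 1.06 ± 0.05 (adjusted p = 1.9e-11). Cenpa rose from 9.04 ± 1.28 to 19.2 ± 0.354 CPM, a log2 fold change of 1.09 ± 0.10. Cenph and Cenpk, which with CENP-I form part of the bridge from the centromere to the outer kinetochore, had log2 fold changes of 1.37 ± 0.08 and 1.35 ± 0.13. Cenpf, a large protein of the outer corona, stood at 1.35 ± 0.06, and the inner stalk of the NDC80 complex, Spc24 and Spc25, at 1.41 ± 0.09 and 1.27 ± 0.09. The Cenpk row overlaps Ppwd1 on the opposite strand, which rose too (log2 fold change 0.57). Ppwd1 was read above Cenpk, at a mean of 15.5 CPM in control and 23.0 CPM in progesterone libraries, and reads of this pair may be mixed too.

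All 11 checkpoint and anaphase genes rose (median log2 fold change 1.43), over a span from Bub3 to Sgo2. The shugoshins, which guard centromeric cohesin from early removal, had the largest fold changes of the group and, per length, its lowest levels. Sgo2 (chromosome 9, 64898459 to 64923012, plus strand) had 4.13, 4.25 and 2.41 CPM in the control libraries and 11.9, 11.3 and 8.96 CPM in the progesterone libraries. Its log2 fold change was 1.57 ± 0.20 (adjusted p = 2.7e-05), with the largest SE of the 41 genes, and its lowest library held 55 counts. Sgo2 shares its locus with Kctd18 on the opposite strand, which fell (log2 fold change -0.29). Kctd18 was read far above Sgo2, at a mean of 39.6 CPM in control and 32.3 CPM in progesterone libraries. Reads of this pair may be mixed too, so the level of Sgo2 is uncertain. Sgo1 had 6.10, 5.37 and 6.87 CPM in control and 17.5, 17.9 and 17.2 CPM in progesterone libraries, a log2 fold change of 1.52 ± 0.11 (adjusted p = 6.3e-09). The progesterone libraries of Sgo1 were nearly level, while its controls spread more.

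Bub1b, which encodes the BubR1 subunit of the inhibitor that blocks the anaphase-promoting complex, had 23.2, 22.9 and 20.4 CPM in the control libraries and 62.1, 64.3 and 62.4 CPM in the progesterone libraries. The change was 1.50 ± 0.06 on the log2 scale (adjusted p = 7.6e-12). The kinases that start the signal rose as well, Bub1 from 32.4 ± 0.734 to 71.7 ± 2.54 CPM and Ttk, which encodes MPS1, from 16.8 ± 0.343 to 43.5 ± 2.78 CPM. Mad2l1, the MAD2 subunit of the same inhibitor, rose from 12.8 ± 0.983 to 35.6 ± 1.72 CPM, a log2 fold change of 1.47 ± 0.08.

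Bub3 (chromosome 1, 203524426 to 203557337, plus strand), the scaffold that brings BUB1 and BubR1 to the kinetochore, moved least of all 41 genes. It had 60.3, 58.3 and 56.3 CPM in the control libraries and 68.9, 74.1 and 71.7 CPM in the progesterone libraries. The groups did not overlap, and the log2 fold change of 0.30 ± 0.05 (adjusted p = 6.2e-05) stayed above 0 under every scaling tried. Pttg1, which encodes securin, had 13.3, 15.4 and 13.6 CPM in control and 23.9, 25.9 and 22.7 CPM in progesterone libraries, a log2 fold change of 0.77 ± 0.08 (adjusted p = 7.5e-07). Securin's partner separase, Espl1, rose from 17.2 ± 2.39 to 46.3 ± 3.31 CPM, a log2 fold change of 1.43 ± 0.09. Cdc20, the activator of the anaphase-promoting complex and the target of the checkpoint, rose from 49.7 ± 2.69 to 93.9 ± 3.05 CPM (0.92 ± 0.05). Ube2c, the ubiquitin-conjugating enzyme that works with that complex, rose from 18.5 ± 2.27 to 52.6 ± 1.00 CPM (1.50 ± 0.08).

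**Figure D2:**
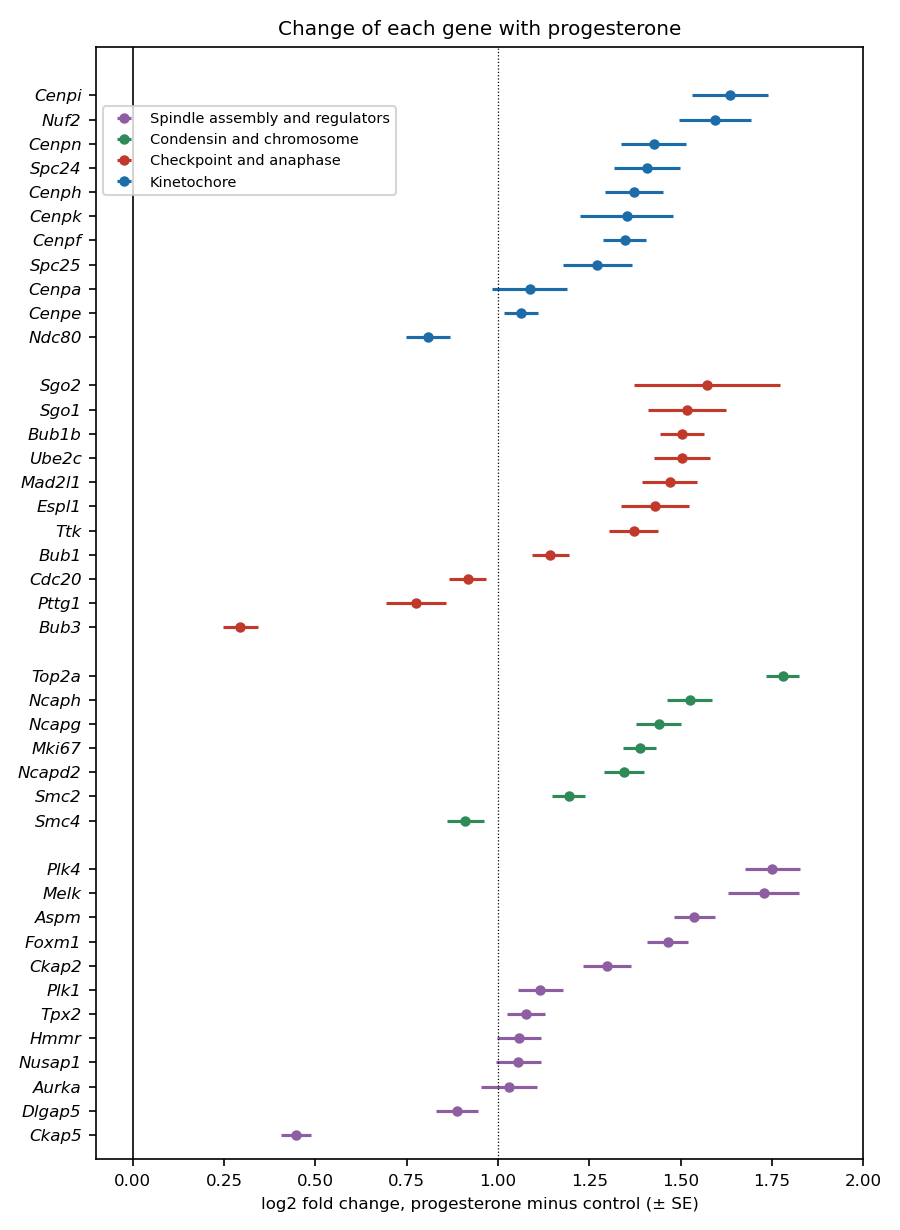
Log2 fold change of each gene, progesterone minus control, with bars of 1 SE, grouped and coloured by role and sorted within each role. The dotted line is a 2-fold rise: 34 genes lie to its right and 7 to its left, with Bub3 and Ckap5 nearest 0.

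The condensin and chromosome genes also rose in 7 of 7, with a median log2 fold change of 1.39. Top2a (chromosome 10, 86901007 to 86932154, minus strand), which encodes topoisomerase II alpha and untangles sister DNA, changed most of all 41 genes. It had 88.2, 85.9 and 80.8 CPM in the control libraries and 291, 297 and 288 CPM in the progesterone libraries. The groups were far apart and the libraries of each group close, at a log2 fold change of 1.78 ± 0.04 (adjusted p = 1.5e-14), a size that 2.31% of tested genes reached or passed. Mki67, which encodes a protein coat of mitotic chromosomes, stood at 89.7 to 96.5 CPM in the controls and 236 to 252 CPM with progesterone (1.39 ± 0.05).

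Among the 5 subunits of condensin I, Ncaph, the kleisin that closes the ring, had 17.4, 18.8 and 18.4 CPM in control and 53.8, 53.1 and 50.1 CPM in progesterone libraries (1.52 ± 0.06, adjusted p = 7.3e-12). Ncapg, a HEAT-repeat subunit, had 17.2, 16.5 and 15.7 CPM in the control libraries and 44.0, 45.0 and 45.0 CPM in the progesterone libraries (1.44 ± 0.06, adjusted p = 1.7e-11). Ncapd2, the other HEAT-repeat subunit, rose from 40.3 ± 3.00 to 102 ± 4.26 CPM (1.34 ± 0.06). The ATPase arms, which condensin II uses too, had smaller fold changes. Smc4 had 104, 106 and 93.9 CPM in control and 191, 197 and 184 CPM in progesterone libraries (0.91 ± 0.05, adjusted p = 3.7e-10), and Smc2 had 63.9, 62.1 and 62.3 CPM in control and 144, 149 and 138 CPM in progesterone libraries (1.19 ± 0.04, adjusted p = 2.8e-12). In both, the lowest progesterone library was well above the highest control.

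All 12 spindle assembly genes and mitotic regulators rose (median log2 fold change 1.10). Plk4 (chromosome 2, 127686925 to 127705518, plus strand), the kinase that starts centriole duplication, had 17.4, 16.6 and 14.5 CPM in the control libraries and 56.9, 55.9 and 50.6 CPM in the progesterone libraries. Its log2 fold change was 1.75 ± 0.07 (adjusted p = 1.5e-11). The row overlaps Mfsd8 on the opposite strand, which fell (log2 fold change -0.69), and reads of this pair may be mixed too. Melk, a kinase of cycling and progenitor cells, had 8.82, 9.32 and 7.14 CPM in control and 30.0, 27.3 and 26.5 CPM in progesterone libraries, a log2 fold change of 1.73 ± 0.10 (adjusted p = 4.4e-10). Aspm, which holds microtubule ends at the spindle pole, had 29.9, 27.2 and 26.0 CPM in control and 81.1, 81.1 and 79.4 CPM in progesterone libraries (1.54 ± 0.06, adjusted p = 1.7e-12), and its progesterone libraries were almost level.

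Foxm1, a transcription factor of G2 and mitotic genes, rose from 22.2 ± 0.664 to 61.4 ± 0.448 CPM, a log2 fold change of 1.46 ± 0.05. The entry kinases rose too, Plk1 from 30.9 ± 2.14 to 67.1 ± 3.19 CPM (1.12 ± 0.06) and Aurka from 19.5 ± 2.16 to 39.9 ± 1.64 CPM (1.03 ± 0.08). Tpx2, which activates Aurora A on the spindle, had a log2 fold change of 1.08 ± 0.05. The microtubule binders Hmmr and Nusap1 stood at 1.06 ± 0.06 and 1.06 ± 0.06, and Ckap2 at 1.30 ± 0.07.

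Ckap5, the microtubule polymerase chTOG, which also serves interphase microtubules, had 122, 124 and 121 CPM in the control libraries and 168, 171 and 161 CPM in the progesterone libraries. The groups did not overlap, at a log2 fold change of 0.45 ± 0.04 (adjusted p = 1.5e-07). Dlgap5, which stabilises kinetochore fibres, had 38.8, 39.5 and 41.0 CPM in control and 67.9, 79.1 and 73.6 CPM in progesterone libraries (0.89 ± 0.06, adjusted p = 2.1e-09). The 7 genes under 2-fold were thus Bub3, Ckap5, Pttg1, Ndc80, Dlgap5, Smc4 and Cdc20.

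Levels can be compared between genes only per length, which the deposited FPKM values allow. These scale fragments by gene length and by a divisor near the library total. They use the annotated length of each row, so the order of genes depends on it, and they measure RNA and not protein. In the controls Smc4 was highest at 23.8 ± 1.55 FPKM, followed by Cdc20 at 22.6 ± 1.25, Ckap5 at 21.5 ± 0.257 and Bub3 at 21.3 ± 0.764 (SD, n = 3). Each of these 4 lay within an SD of the next in that order. The lowest were Sgo2 at 0.786 ± 0.226 and Sgo1 at 1.37 ± 0.169 FPKM. With progesterone Top2a was highest, at 51.9 ± 0.767 FPKM from 15.1 ± 0.701 in the controls. Smc4 followed at 44.7 ± 1.59 and Cdc20 at 42.7 ± 1.44 FPKM, while Ckap5 and Bub3 stood at 29.3 ± 0.832 and 26.2 ± 0.924. Sgo2 stayed lowest, at 2.34 ± 0.341 FPKM. The genes with the smallest changes, Bub3 and Ckap5, were thus among the 4 highest in the controls. Top2a came next after these 4 in the controls and had the largest change. Both shugoshins, the lowest, rose by more than 2-fold, as did most of the genes. A relation of level to change was not tested.

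**Figure D3:**
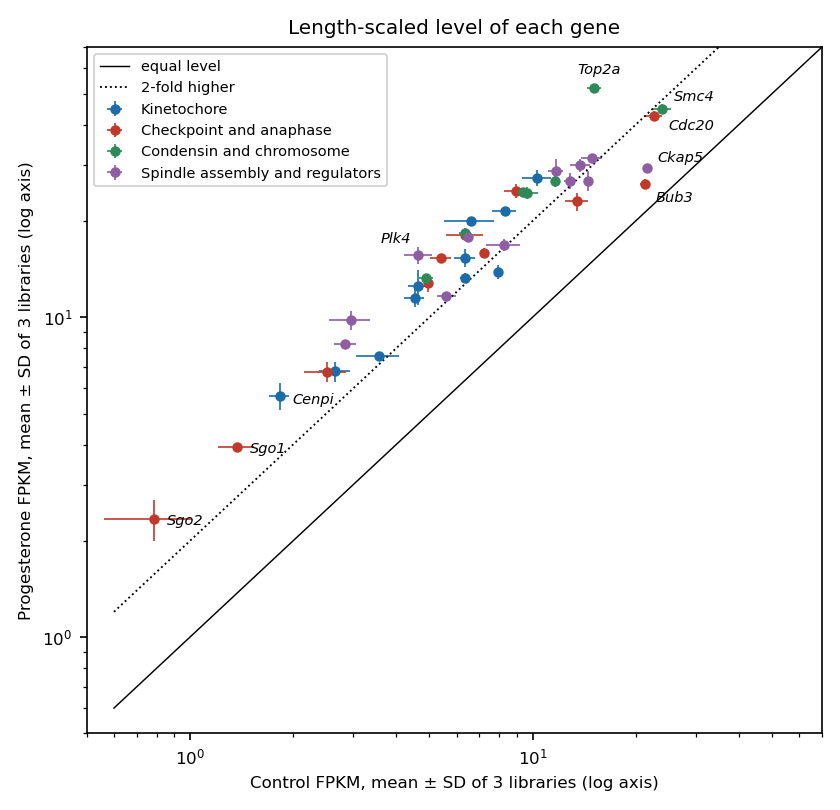
Deposited FPKM of each gene in the controls (horizontal) and with progesterone (vertical), as means with SD bars over 3 libraries, on log axes, coloured by role. All points lie above the solid line of equal level, and most above the dotted line of a 2-fold rise, with Bub3 and Ckap5 closest to equal.

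Relative levels within a complex were compared as the FPKM of each subunit over the mean FPKM of its set in the same library. The values of a set average 1 and are thus tied to each other. In the NDC80 complex, Ndc80 had relative levels of 0.953, 0.980 and 1.13 in the controls and 0.721, 0.732 and 0.720 with progesterone. Nuf2 had 0.897, 0.901 and 0.736 in the controls and 1.07, 1.01 and 1.06 with progesterone. Spc24 stood at 1.32 ± 0.0595 and 1.43 ± 0.0350, and the groups of Spc25 overlapped. Neither Ndc80 nor Nuf2 overlapped between groups, and their order differed: Ndc80 was above Nuf2 in all 3 controls and below it in all 3 progesterone libraries.

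In condensin I, Smc4 had the highest relative FPKM in both groups, at 2.11 ± 0.0706 times the mean in the controls and 1.76 ± 0.0200 with progesterone. Ncaph had 0.565 ± 0.0378 and 0.718 ± 0.00921, Ncapg 0.434 ± 0.00501 and 0.521 ± 0.0192, and Ncapd2 0.854 ± 0.0495 and 0.960 ± 0.0285, so the 3 subunits outside the ATPase pair lay nearer the mean with progesterone. Smc2 overlapped between groups. Among 6 checkpoint genes, Bub3 stood at 1.82 ± 0.0236 times the mean in the controls and 1.14 ± 0.0448 with progesterone. Bub1b had 0.461 ± 0.0131 and 0.669 ± 0.0133, and Mad2l1 0.763 ± 0.0284 and 1.08 ± 0.0288. Of the 15 ratios, 12 did not overlap between groups, each with a 2-sided exact permutation p of 0.1, the smallest that 3 against 3 allows (0.125 after Benjamini-Hochberg adjustment over 15). No ratio can come under 0.05 with this test. Ratios of a set are tied, so the 12 are not separate results. Non-overlap was also common among all 15075 genes tested, with 5092 apart and higher with progesterone and 5248 apart and lower.

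**Figure D4:**
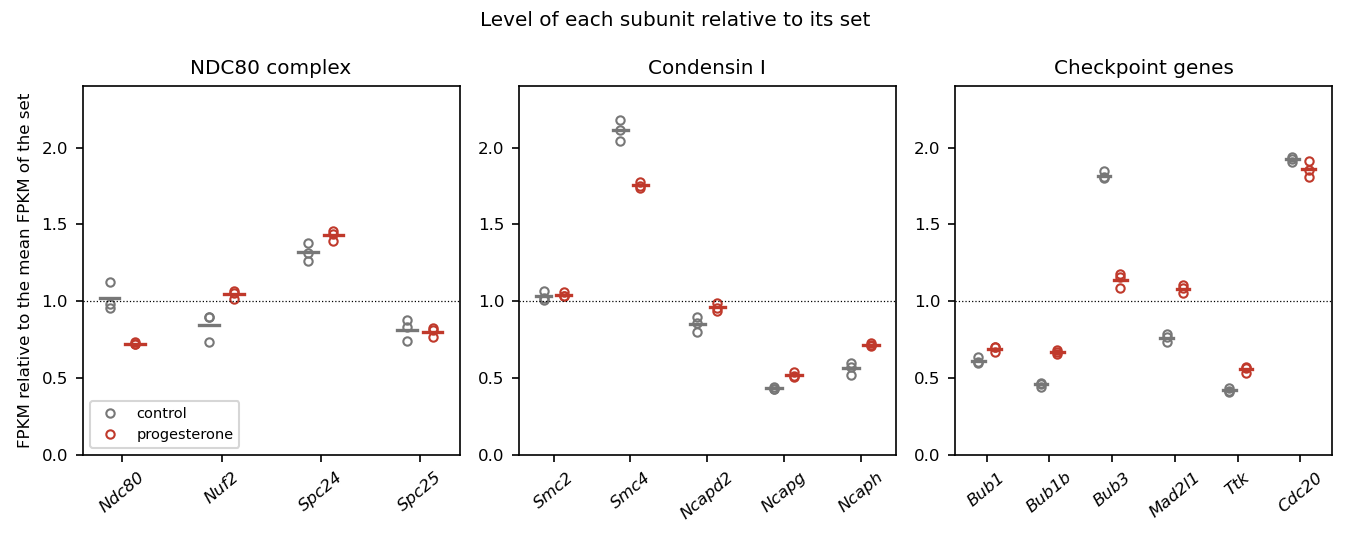
FPKM of each subunit divided by the mean FPKM of its set in the same library, for the NDC80 complex, condensin I and 6 checkpoint genes. Open circles are libraries (grey control, red progesterone), short lines are means, and the dotted line is the set's mean: Ndc80, Smc4 and Bub3 are lower with progesterone, and Nuf2, Ncaph and Mad2l1 higher.

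The other genes of these processes came from 7 lists that leave out the 41 genes. Of 104 matched genes, 103 were tested, 79 rose and 8 fell (median log2 fold change 0.50), and 29 rose at least 2-fold. The background for these counts and those of each list below is all tested genes. Of those, 31.2% were called higher, 31.8% lower and 7.14% at least 2-fold higher. Of 22 other kinetochore genes 21 rose, with a median of 1.08. Mis18a, part of the complex that licenses CENP-A loading, changed most (from 3.53 ± 0.253 to 12.1 ± 0.982 CPM, 1.77 ± 0.13), while Cenpb, which binds centromeric satellite DNA, did not pass (0.10 ± 0.04, adjusted p = 0.054). Cenpq, Cenpx and Cenps were not analysed here.

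Of 24 other checkpoint and anaphase-promoting complex genes, 18 rose and 1 fell, with a median of 0.38. Trip13, the ATPase that takes the checkpoint inhibitor apart, rose from 8.24 ± 0.628 to 27.2 ± 1.74 CPM (1.72 ± 0.09). Mad2l1bp, the adaptor that presents MAD2 to TRIP13, was the gene that fell, from 15.2 ± 2.78 to 10.2 ± 0.677 CPM (-0.58 ± 0.12, adjusted p = 9.5e-04). Besides Trip13, those at least 2-fold higher were Kntc1, Zwilch and Spdl1, of the kinetochore RZZ-Spindly module, and Fbxo5, which inhibits the anaphase-promoting complex (1.71, 1.45, 1.31 and 1.55 on the log2 scale). Zw10, of the same RZZ-Spindly module, rose less (0.43 ± 0.07).

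All 3 subunits particular to condensin II rose, from 0.57 ± 0.04 for Ncaph2 to 1.56 ± 0.05 for Ncapg2. Cohesin and its regulators, which hold sister chromatids together and also shape interphase chromatin, rose in 8 of 14 and fell in 3, with a median of 0.20. Cdca5, sororin, rose from 3.05 ± 0.421 to 11.3 ± 1.03 CPM (1.88 ± 0.14) and Esco2, the acetyltransferase of S phase cohesion, from 8.62 ± 0.387 to 25.4 ± 1.85 CPM (1.56 ± 0.08), and these were the only 2 of the 14 at least 2-fold higher. The ring subunits Smc1a, Smc3 and Rad21 rose by 0.33, 0.28 and 0.22 on the log2 scale. Hdac8, the cohesin deacetylase, fell most (-0.36 ± 0.12), and Esco1 and the loader Nipbl fell too (-0.29 and -0.13).

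Of 25 other spindle assembly genes tested, 21 rose and 2 fell, with a median of 0.57. Tacc3, which crosslinks kinetochore fibres with chTOG, rose from 26.5 ± 0.600 to 72.1 ± 4.81 CPM (1.44 ± 0.06). Numa1, which anchors microtubules at the pole, fell from 233 ± 13.8 to 167 ± 3.56 CPM (-0.48 ± 0.05), as did Tubgcp5 (-0.24). Haus1 had no count in any library and Haus2 was not analysed here. Of 9 centriole duplication genes 5 rose and 1, Cenpj, fell (-0.78 ± 0.06). Stil, which works with PLK4, had the largest rise (1.43 ± 0.08). Cetn3, a centrin, missed the threshold at -1.48 ± 1.41 (adjusted p = 0.42), with 7.52, 0.558 and 0.306 CPM in control and 1.23, 1.18 and 0.649 CPM in progesterone libraries. Its negative value rests on control library 1, since the other two controls lay below all 3 progesterone libraries. Cep152 was not analysed here.

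Of the MuvB core and its B-MYB partner, which bind CHR promoters, 3 of 6 were higher and 1 lower. With 6 genes this cannot be set apart from the 31.2% higher and 31.8% lower of all tested genes. Mybl2, which encodes B-MYB, rose from 15.1 ± 1.72 to 57.6 ± 2.17 CPM (1.93 ± 0.08), by more than any of the 41 genes in point estimate. Lin54, the subunit that contacts the CHR, had 0.99 ± 0.06, and Lin37, which is needed for repression by the DREAM complex, fell from 18.4 ± 1.10 to 12.5 ± 1.01 CPM (-0.56 ± 0.09). The 41 genes were close to the other cell-cycle groups measured beside them: 12 of 12 cytokinesis and chromosomal passenger genes rose, with a median of 1.30, and 28 of 29 DNA replication genes, with a median of 1.19. These medians are descriptions, and the differences between groups of genes were not tested.

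**Figure D5:**
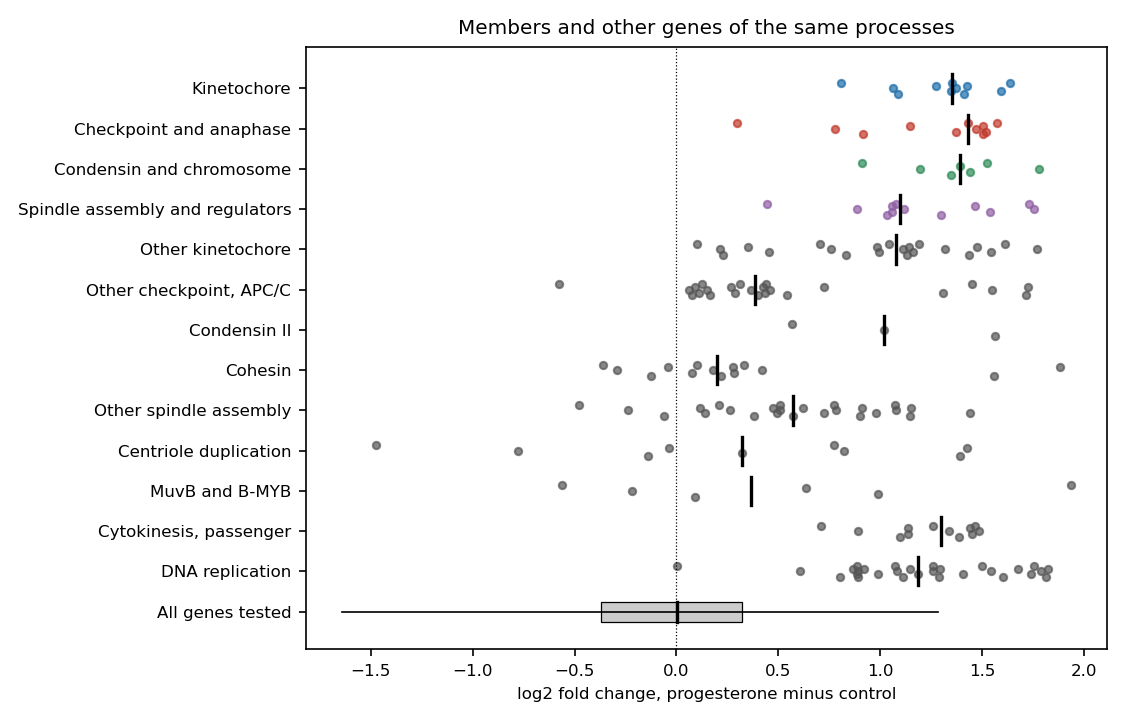
Log2 fold change of every tested gene in the 4 role groups (coloured) and in 9 other lists of related genes (grey), with a black line at each median. The bottom bar shows all genes tested, with the box from the 25th to the 75th percentile and the line from the 5th to the 95th: the medians of the role groups run from 1.10 to 1.43, to the right of the box, and that of cohesin is nearest 0 of all lists at 0.20.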

How the data were processed

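Per the labels' protocols, mRNA was enriched and libraries came from a TruSeq RNA kit. Bowtie 0.12.2 and mm8, a mouse build, appear in the submitters' processing notes, while rows carry rat Ensembl identifiers. No source used here names the counter, strand setting or rat build. Deposited values are raw gene counts and FPKM, and the divisor the authors used for FPKM lay within 1.57% of each library's count total. Libraries were grouped by title. The test on the counts of 6 libraries was that of edgeR 4.0.16 under R 4.3.3 (genes kept by filterByExpr at 10 counts and a total of 15, TMM scaling, robust glmQLFit, glmQLFTest), with Benjamini-Hochberg adjustment over 15075 genes at 0.05. Of these, 515 were assembled loci without a gene name, and such loci held 0.826% to 0.896% of counts. SEs of log2 fold changes come from the F statistic, and the biological coefficient of variation was 9.04%. Replicate pairs differed beyond sampling noise, with a chi-square of 5.57 to 9.79 per degree of freedom. The scripts were tested on simulated data.

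The genes and lists were chosen with earlier results of these data known. Per-library values are given for the 3 largest and 2 smallest log2 fold changes in each role group, and the largest and smallest log2 fold changes are named in each of the 7 lists of other genes of these processes. Further genes of those lists were named after their values were seen. The alternatives run were scaling by RLE, by upper quartile and by library size, scaling without mitochondrial and 4-fold changed genes, 2 other filters, DESeq2 1.42.0, limma 3.58.1 on log2(FPKM + 1) and log2(FPKM + 0.1), a replicate block, and each library left out.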

Additional observations from a re-analysis of the deposited data

How the results depend on the processing

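Under each of 16 alternatives all 41 genes were higher with progesterone at an adjusted p under 0.05, and none was lower. The number at least 2-fold higher was 34 in the reported test, 36 with upper quartile scaling, 28 with limma on log2(FPKM + 1), and 32 to 34 with a library left out. On log2(FPKM + 1), a scale that understates changes of low genes, the median was 1.15, and that of Sgo2 was 0.91. The median over the 41 genes was 1.45 with upper quartile scaling and 1.32 to 1.38 with a library left out. Bub3, the gene nearest 0, ran from 0.27 to 0.39 on the log2 scale, with a largest adjusted p of 0.00084. Deviations of same-numbered libraries correlated at 0.087, 0.027 and 0.022, which does not settle whether replicate numbers pair the libraries. Control libraries 1 and 2 correlated best with their own number, and control library 3 with progesterone library 2 (0.055). With the replicate block 41 genes were higher, 34 of them at least 2-fold, and 4691 of all genes were higher and 4817 lower, against 4707 and 4790. Depth limits Sgo2 most of the 41 genes: its lowest library held 55 counts, and its SE was the largest.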
